A study of Mus musculus with 6 samples.

Results

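The BCL2 family sets whether a cell keeps its mitochondria intact or releases cytochrome c and dies by apoptosis. Pro-survival members (BCL2, BCL-XL, MCL1 and A1) hold back the effectors BAX and BAK, and the BH3-only members BIM and PUMA relieve that block. In the myeloid lineage, MCL1 and A1 are known as short-lived proteins whose genes respond to inflammatory signals, and BIM is known to limit the life of osteoclasts. The 10 genes described here were picked by symbol: *Bcl2*, *Bcl2l1* (BCL-XL), *Mcl1* and the A1 copies *Bcl2a1a*, *Bcl2a1b* and *Bcl2a1d* as pro-survival genes, and *Bax*, *Bak1*, *Bcl2l11* (BIM) and *Bbc3* (PUMA) as pro-death genes. All 10 were found among the 24346 gene symbols of each table.

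The values are FPKM, a level scaled both to the length of the transcript and to the size of the library, from RNA-Seq of EGFP+ cells sorted from the calvaria of CX3CR1-EGFP knock-in mice, whose reporter labels monocytic osteoclast precursors. Lipopolysaccharide (LPS) at 20 mg/kg was injected at the periosteum of the calvaria of all 6 mice, so there was no group without LPS. The JAK1-selective inhibitor ABT-317 was given orally to 3 of them for 5 days from the same day, at 60 mg/kg and 2 doses a day, while the other 3 had vehicle. The age and sex of these mice are not given in the sources used here. The sort rested on the reporter alone, so the libraries hold every EGFP+ cell of the calvarial marrow.

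Monocyte markers were present in every mouse, with a summed FPKM of 7 genes, led by *Ly6c2* and *F13a1*, between 4425 and 6328. Genes of neutrophil precursors were also high, led by *Mpo* and *Elane*. Their sum of 7 genes was 13331 to 13971 with JAK inhibitor and 5207 to 9908 with vehicle. The groups did not overlap for 4 of the 7, all higher with JAK inhibitor (57.1%, against 9.92% of all genes tested). *Ctsg* overlapped, at 1140, 1228 and 1106 FPKM with vehicle and 1082, 1161 and 1112 with JAK inhibitor. *Ngp* in JAK inhibitor-treated mouse 2 (287.4 FPKM) lay below each vehicle-treated mouse. Of 5 B cell markers, *Cd79b* was at 26.7 to 35.4 FPKM, whereas *Ms4a1* and *Pax5* were listed at 0 in all mice. Vehicle-treated mouse 3 stood apart from the others: its mean correlation with the other libraries was 0.966, against 0.975 to 0.979 for each of the rest. For genes whose value moved strongly without it, that value is given as well.

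The A1 copies lie within 1 cluster on chromosome 9 (GRCm38), *Bcl2a1d* at 88723285 to 88731914, *Bcl2a1a* at 88956900 to 88962419 and *Bcl2a1b* at 89199209 to 89207827. Their coding sequences are each 516 bases long and differ at 12 positions among the 3 copies (2.33%), with a run of 217 bases that is the same in all. The first 75 coding bases, which have the length of 1 read in this experiment, hold 6 of the variable positions. They are shown because a read can be given to 1 copy only through such positions, which are in capitals (GENCODE M21 transcripts, coding strand).
*Bcl2a1a* (chr9:88957051-88957125, plus strand): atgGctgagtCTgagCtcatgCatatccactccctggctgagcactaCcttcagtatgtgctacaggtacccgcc
*Bcl2a1b* (chr9:89199360-89199434, plus strand): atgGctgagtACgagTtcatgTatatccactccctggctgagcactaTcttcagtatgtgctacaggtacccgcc
*Bcl2a1d* (chr9:88731645-88731719, minus strand): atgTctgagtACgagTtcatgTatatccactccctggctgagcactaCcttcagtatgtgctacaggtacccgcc
Of all 75-base windows of each transcript, 55.2% for *Bcl2a1a*, 68.4% for *Bcl2a1b* and 67.6% for *Bcl2a1d* also occur in a transcript of another gene, which are the other copies, *Bcl2a1c* and the overlapping model Gm29094. The split of reads among the copies is therefore uncertain, and their sum, which still leaves out reads given to the other models, is given beside each. The other members share no such window with another gene, apart from *Bax*, for which 11.7% of windows also occur in the overlapping gene model Gm45808.

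The 250 bases before the RefSeq starts were 95.2% identical between *Bcl2a1a* and *Bcl2a1d*, 82.0% between *Bcl2a1a* and *Bcl2a1b* and 79.2% between *Bcl2a1b* and *Bcl2a1d*. The 2 lower values reflect gaps (88 and 100 gap bases) far more than mismatches (1 and 2 bases), as the start of *Bcl2a1b* is placed 44 bases further along. The 100 bases next to the RefSeq start of *Bcl2a1a* (GRCm38.p6) and the matching bases of the other copies differ at 2 positions, in capitals. They are shown because the copies, whose values are set side by side below, have this stretch in common.
*Bcl2a1a* (chr9:88956820-88956919, plus strand): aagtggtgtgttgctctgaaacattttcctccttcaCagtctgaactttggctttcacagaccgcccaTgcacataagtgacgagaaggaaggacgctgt
*Bcl2a1b* (chr9:89199129-89199228, plus strand): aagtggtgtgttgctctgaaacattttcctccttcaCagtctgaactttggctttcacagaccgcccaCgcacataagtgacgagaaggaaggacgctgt
*Bcl2a1d* (chr9:88731851-88731950, minus strand): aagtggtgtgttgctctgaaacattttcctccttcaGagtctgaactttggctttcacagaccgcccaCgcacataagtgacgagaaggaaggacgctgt
For *Bcl2a1b* this stretch ends 44 bases before its own RefSeq start. All 10 genes had at least 1 of 15 RefSeq promoter entries, of which the 250 bases before the start were searched on both strands. None of the 15 held the STAT-type letters TTCNNNGAA, a motif chosen after the values were seen, which 7.02% of 32851 mouse promoters hold in the same window. NF-kB-type letters, also chosen after the values were seen (GGGA and CC with 4 bases of any kind between them), were found in 2 of the 15, 1 entry each of *Bbc3* and *Bak1*, and in 17.6% of all promoters.

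The order of FPKM levels was led by *Bax*, with 143.1 to 187.9 FPKM over the 6 mice, followed by *Mcl1* with 98.3 to 129.6. Both lay apart from the next gene in every mouse. *Bcl2a1b*, *Bcl2a1d* and *Bcl2a1a* came next by mean level and kept that order among themselves within each mouse, although their ranges over the mice overlapped. *Bcl2l1* exceeded *Bcl2a1a* in vehicle-treated mouse 3. *Bcl2l1*, *Bcl2* and *Bcl2l11* followed with overlapping ranges between 4.19 and 13.1 FPKM, and neighbours in this group traded places between mice. *Bbc3* reached 3.22 to 5.29 FPKM, and *Bak1* was the lowest, with 1.21 to 2.59. *Bax* alone made up 91.9% to 94.8% of the summed FPKM of the 4 pro-death genes.

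**Figure D1:**
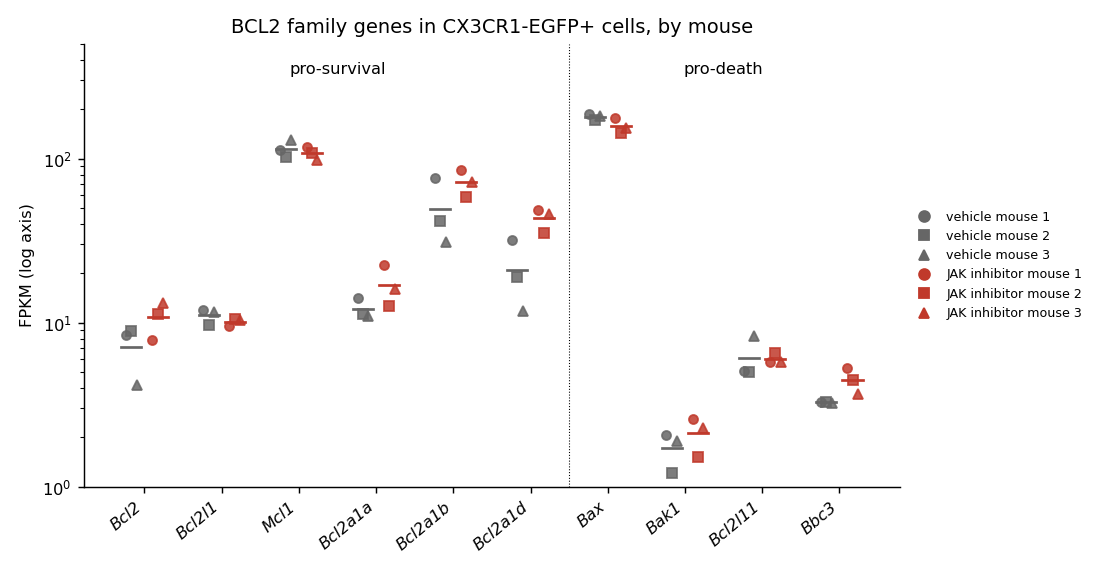
FPKM of the 10 BCL2 family genes on a log axis, with 1 symbol per mouse (circle, square and triangle for mice 1, 2 and 3), grey for vehicle and red for JAK inhibitor; short lines are the means of 3 mice. *Bcl2a1d* and *Bbc3* are the genes whose red symbols all lie above the grey ones.

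All 10 genes passed the filter on low values (at least 1 FPKM in at least 1 mouse), as did 11301 genes in all. JAK inhibitor was compared with vehicle on log2(FPKM + 1) with limma, so that fold changes of low genes are understated. At an adjusted p under 0.05 (Benjamini-Hochberg over all genes tested), 0 of the 10 passed, against 0.133% of all genes. At an unadjusted p under 0.05, 1 passed (*Bcl2a1d*, higher), against 16.0% of all genes, with 6.57% higher and 9.40% lower. Without vehicle-treated mouse 3 it was again *Bcl2a1d* alone that passed. The groups did not overlap for 2 of the 10, both higher with JAK inhibitor (*Bcl2a1d* and *Bbc3*), against 22.0% of all genes, of which 9.92% lay higher and 12.1% lower. In neither count of both directions did the members exceed the share of all genes. In these bulk libraries, fewer cells of a type and less RNA per cell cannot be told apart.

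**Figure D2:**
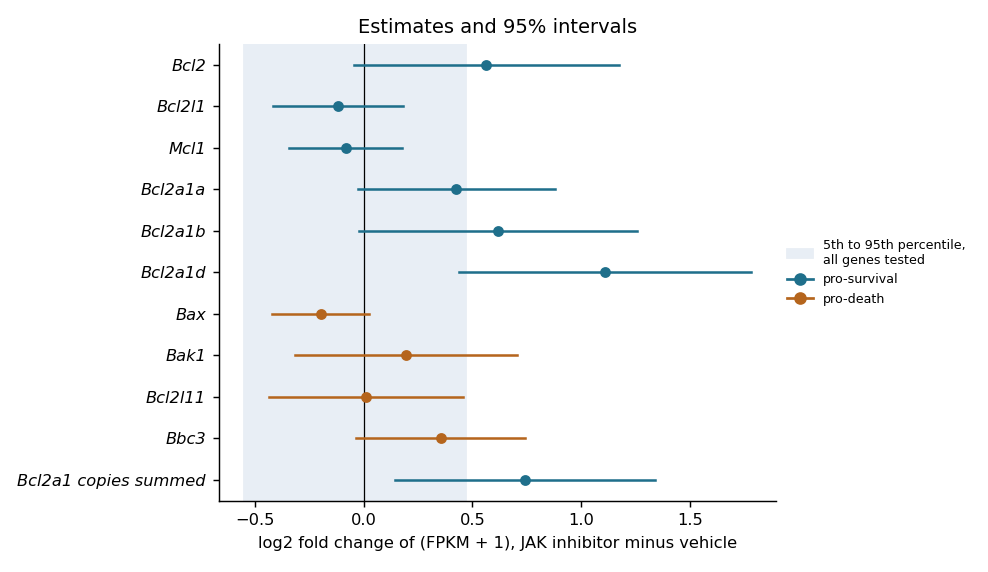
Log2 fold change of (FPKM + 1), JAK inhibitor minus vehicle, as points with 95% intervals from limma, for pro-survival genes (blue), pro-death genes (brown) and the sum of the A1 copies (last line). The shaded band runs from the 5th to the 95th percentile of all genes tested (-0.55 to 0.47), and only the intervals of *Bcl2a1d* and of the sum leave out 0.

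*Bcl2a1d*, 1 of the genes of the A1 protein, had an FPKM of 31.8, 19.0 and 11.7 in vehicle-treated mice 1 to 3 and of 48.7, 35.1 and 45.9 in JAK inhibitor-treated mice 1 to 3. Each treated mouse lay above each vehicle-treated mouse, and vehicle-treated mouse 3 was the lowest. On average it was 20.8 ± 10.2 FPKM in the vehicle group and 43.2 ± 7.19 FPKM in the treated group (SD, n = 3 each). The log2 fold change was 1.11 ± 0.30 (SE, limma adjusted p = 0.143). With 3 mice a group an exact permutation p (2-sided) cannot go below 0.1, the value reached here. Without vehicle-treated mouse 3, the log2 fold change was 0.77 (unadjusted p = 0.0104, adjusted p = 0.216 in limma).

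*Bcl2a1b*, the copy with the highest values, had an FPKM of 75.8, 41.5 and 31.0 with vehicle and 85.6, 58.7 and 72.3 with JAK inhibitor. The groups overlapped, since vehicle-treated mouse 1 exceeded 2 of the treated mice. Its log2 fold change was 0.62 ± 0.28 (SE, limma adjusted p = 0.329), and it was 0.34 without vehicle-treated mouse 3 and 0.97 without vehicle-treated mouse 1. *Bcl2a1a* had an FPKM of 14.2, 11.3 and 11.1 with vehicle and 22.4, 12.6 and 16.1 with JAK inhibitor. Here too vehicle-treated mouse 1 lay within the range of the treated mice. Left-out treated mice moved the value from 0.22 (without mouse 1) to 0.61 (without mouse 2), and over all mice the log2 fold change was 0.43 ± 0.20 (SE, limma adjusted p = 0.346).

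The sum of the A1 copies was 121.8, 71.8 and 53.8 FPKM with vehicle and 156.7, 106.4 and 134.3 FPKM with JAK inhibitor. It was higher on average in treated mice, but JAK inhibitor-treated mouse 2 lay below vehicle-treated mouse 1. Its log2 fold change was 0.74 (95% interval 0.14 to 1.34, unadjusted p = 0.0206, adjusted p = 0.221 in limma, exact permutation p = 0.2). Without vehicle-treated mouse 3, it was 0.48 with an unadjusted limma p of 0.0798, and it also missed an unadjusted 0.05 when vehicle-treated mouse 2 (0.68) or mouse 1 (0.61) or 3 (0.72) of the treated group was left out. Of the sum, *Bcl2a1d* took 26.1%, 26.5% and 21.8% with vehicle and 31.1%, 33.0% and 34.2% with JAK inhibitor. This share did not overlap between the groups, but it rests on the split of reads among near-identical copies.

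Markers of non-classical monocytes, cells known for high *Cx3cr1*, ordered the vehicle-treated mice as the A1 sum did, but not the treated mice. Among the latter the A1 sum was lowest in mouse 2 and the marker sum in mouse 3. The summed FPKM of 5 such markers (*Nr4a1*, *Spn*, *Ace*, *Treml4* and *Cd300e*) was 401.0, 256.9 and 160.8 in vehicle-treated mice 1 to 3 and 458.3, 447.5 and 385.2 in JAK inhibitor-treated mice 1 to 3. All 5 markers were detected in every mouse, and 4 of them were higher at an unadjusted p under 0.05, against 6.57% of all genes. The sums overlapped between the groups, since vehicle-treated mouse 1 exceeded JAK inhibitor-treated mouse 3. *Cx3cr1* itself, the gene whose promoter drives the reporter, was at 30.1, 31.5 and 15.5 FPKM with vehicle and 30.1, 29.5 and 36.1 FPKM with JAK inhibitor, again lowest in vehicle-treated mouse 3. Of the 5 markers, 2 (*Cd300e* and *Spn*) had groups that did not overlap, both higher (40%, against 9.92% of all genes). *Cd300e* was 97.3, 62.5 and 22.7 FPKM with vehicle and 118.8, 118.9 and 110.3 FPKM with JAK inhibitor. *Treml4*, the highest of the 5, overlapped, at 172.9, 111.4 and 79.1 FPKM with vehicle and 162.8, 162.2 and 134.9 with JAK inhibitor. *Nr4a1* and *Ace* overlapped as well. Mature neutrophils are another cell type known for A1. The sum of 8 of their markers, led by *S100a8* and *S100a9*, was 13466, 10019 and 20956 with vehicle and 13359, 6535 and 11161 with JAK inhibitor, and so was highest in the mouse with the lowest A1 sum. The part of these cells in the A1 values was not tested.

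**Figure D3:**
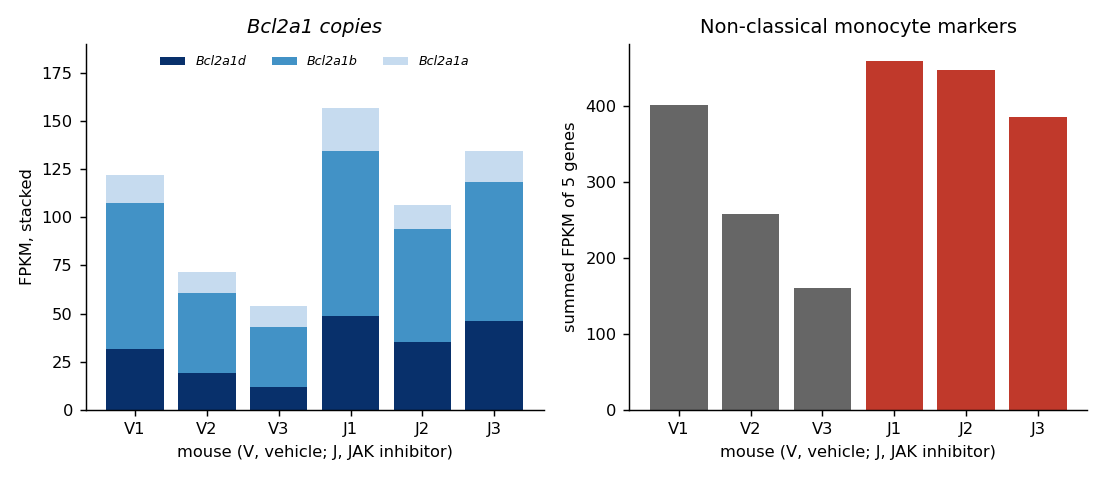
Left, stacked FPKM of the A1 copies in each mouse (V1 to V3, vehicle; J1 to J3, JAK inhibitor). Right, summed FPKM of 5 non-classical monocyte markers in the same mice; V3 has the lowest bar in both panels (53.8 and 160.8 FPKM).

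*Bcl2* (chromosome 1, 106538178 to 106714274), the founding pro-survival gene, had an FPKM of 8.36, 8.86 and 4.19 with vehicle and 7.88, 11.3 and 13.1 with JAK inhibitor. Vehicle-treated mouse 3 was the lowest, and JAK inhibitor-treated mouse 1 lay below the other vehicle-treated mice, so the groups overlapped. The log2 fold change was 0.56 ± 0.27 (SE, limma adjusted p = 0.352), and it was 0.27 without vehicle-treated mouse 3. It passed an unadjusted 0.05 when vehicle-treated mouse 2 (0.73) or JAK inhibitor-treated mouse 1 (0.75) was left out. An exon of D630008O14Rik lies on the opposite strand over *Bcl2*, and its reads may not have been told apart, since the sources name a stranded kit and one that does not keep strand.

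*Mcl1* (chromosome 3, 95658788 to 95663176), the most abundant pro-survival transcript, had an FPKM of 113.0, 101.7 and 129.6 with vehicle and 118.0, 107.7 and 98.3 with JAK inhibitor. The values interleaved, and the log2 fold change was -0.08 with a 95% interval from -0.34 to 0.18 in limma, and 0.01 without vehicle-treated mouse 3. *Bcl2l1* (chromosome 2, 152780668 to 152831728), the gene of BCL-XL, had an FPKM of 12.0, 9.73 and 11.6 with vehicle and 9.58, 10.5 and 10.3 with JAK inhibitor. Its groups overlapped as well, with a log2 fold change of -0.12 and a 95% interval from -0.42 to 0.18 (-0.20 to -0.06 with 1 mouse left out). *Mcl1* made up 44.3%, 53.0% and 65.0% of the summed pro-survival FPKM with vehicle and 40.4%, 45.7% and 38.4% with JAK inhibitor.

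Of the effectors that form pores in the outer mitochondrial membrane, *Bax* (chromosome 7, 45461697 to 45466898) had an FPKM of 187.9, 172.5 and 181.6 with vehicle and 176.4, 143.1 and 154.2 with JAK inhibitor. JAK inhibitor-treated mouse 1 reached into the vehicle range while the other treated mice lay below it. The means were 180.7 ± 7.79 (SD, n = 3) and 157.9 ± 16.9 (SD, n = 3), and the log2 fold change was -0.20 ± 0.10 (SE, limma adjusted p = 0.368). It ran from -0.28 without JAK inhibitor-treated mouse 1, where it passed an unadjusted 0.05, to -0.13 without JAK inhibitor-treated mouse 2. *Bak1* (chromosome 17, 27019810 to 27029009) had an FPKM of 2.07, 1.21 and 1.91 with vehicle and 2.59, 1.51 and 2.28 with JAK inhibitor. Its groups overlapped (log2 fold change 0.19 ± 0.23 SE, from 0.05 without vehicle-treated mouse 2 to 0.34 without JAK inhibitor-treated mouse 2), and *Ggnbp1* overlaps its exons on the opposite strand.

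Among the BH3-only genes, *Bbc3* (PUMA, a p53 target; chromosome 7, 16308393 to 16318205) had an FPKM of 3.30, 3.28 and 3.22 with vehicle and 5.29, 4.50 and 3.68 with JAK inhibitor. The vehicle-treated mice were nearly alike and all treated mice lay above them. The log2 fold change was 0.35 ± 0.17 (SE, limma adjusted p = 0.358, exact permutation p = 0.1). It ran from 0.25 without JAK inhibitor-treated mouse 1 to 0.46 without JAK inhibitor-treated mouse 3, where it passed an unadjusted 0.05. *Trp53*, the gene of p53, had a log2 fold change of 0.00 ± 0.12 (SE) and *Cdkn1a*, another p53 target, one of -0.35 ± 0.18 (SE, unadjusted p = 0.0787 in limma). The values were -0.12 for *Trp53* and -0.18 for *Cdkn1a* without vehicle-treated mouse 3. Whether p53 had a part in the *Bbc3* values was not tested. *Bcl2l11* (BIM; chromosome 2, 128126038 to 128162547) had an FPKM of 5.05, 4.99 and 8.27 with vehicle and 5.77, 6.53 and 5.73 with JAK inhibitor. Vehicle-treated mouse 3 was the highest here, and the 3 treated mice lay between it and the other vehicle-treated mice. The log2 fold change was 0.01 (95% interval -0.43 to 0.46 in limma) and turned from 0.22 without vehicle-treated mouse 3 to -0.10 without vehicle-treated mouse 2.

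Pro-survival and pro-death genes were then set against each other within each mouse, as a description with no test. The mean log2(FPKM + 1) of the 6 pro-survival genes exceeded that of the 4 pro-death genes by 1.36, 1.14 and 0.64 in vehicle-treated mice 1 to 3. In JAK inhibitor-treated mice 1 to 3 it did so by 1.33, 1.32 and 1.47. The groups overlapped at vehicle-treated mouse 1, and the spread among vehicle-treated mice was wider (SD 0.37, n = 3) than among treated mice (SD 0.09, n = 3). With JAK inhibitor the pro-survival mean was higher by 0.42 and the pro-death mean by 0.09, so the difference of the group means was 0.33. It was 0.12 without vehicle-treated mouse 3 and 0.19 when the A1 copies were summed to 1 gene, since 3 of the 6 pro-survival entries are A1 copies. With the median over members in place of the mean it was 0.57. Of the pro-survival genes, 4 of 6 had a log2 fold change above 0, with a median of 0.49, and of the pro-death genes 3 of 4, with a median of 0.10. The median of all tested genes was -0.004.

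Taken as summed FPKM, the pro-survival genes stood at 1.29, 1.06 and 1.02 times the pro-death genes in vehicle-treated mice and at 1.54, 1.52 and 1.54 times in treated mice. This ratio, chosen after the values were seen, did not overlap between the groups. Its denominator is nearly all *Bax* and its numerator is mostly *Mcl1* and *Bcl2a1b*.

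**Figure D4:**
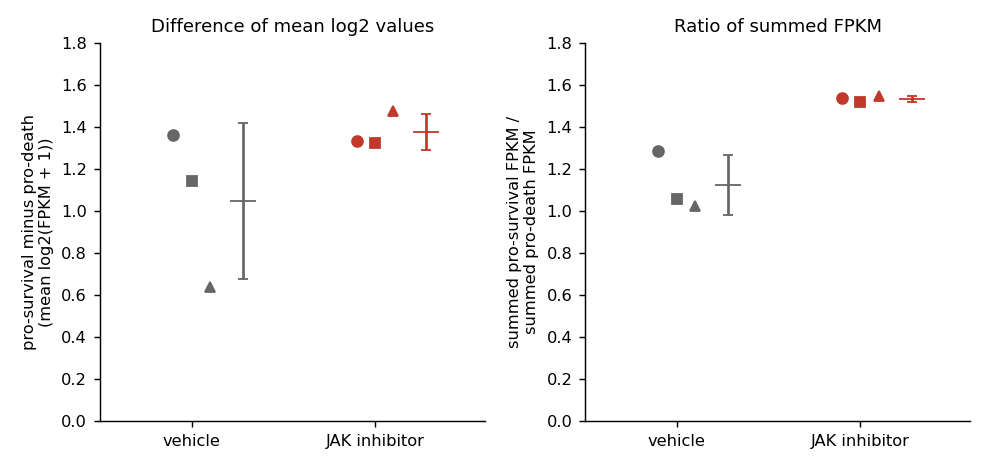
Pro-survival against pro-death genes by mouse, as the difference of the mean log2(FPKM + 1) (left) and as the ratio of summed FPKM (right); symbols are mice, and bars give the mean and SD of 3. On the left vehicle-treated mouse 1 (1.36) lies within the treated range, whereas on the right all treated mice (1.52 to 1.54) lie above all vehicle-treated mice.

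The other genes of the apoptosis pathway were taken from 5 lists with 49 genes, of which 48 were in the files and 40 passed the filter. At an unadjusted p under 0.05 in limma, 2 were higher and 6 lower with JAK inhibitor (20% of those tested, against 16.0% of all genes), and 0 passed the adjusted threshold. The groups did not overlap for 11 of the 40 (27.5%, against 22.0% of all genes), with 2 higher and 9 lower. Of all genes, 9.92% lay higher and 12.1% lower without overlap, and 6.57% were higher and 9.40% lower at the unadjusted p. Without vehicle-treated mouse 3, 5 of the 40 passed an unadjusted 0.05 (12.5%, against 1466 of 11301 genes or 13% in that fit). The median log2 fold change was -0.003, with 20 genes above 0 and 20 below.

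In the remaining BCL2 family, 0 of 10 tested genes were higher and 3 were lower at an unadjusted p under 0.05, against 6.57% higher and 9.40% lower of all genes. *Bad*, a BH3-only gene, was at 88.4, 94.1 and 109.6 FPKM with vehicle and 80.2, 74.4 and 74.1 with JAK inhibitor, with no overlap. The log2 fold change was -0.34 ± 0.10 (SE, limma adjusted p = 0.169). *Bnip3*, which marks mitochondria for removal, had a log2 fold change of -0.37 ± 0.13 (SE, limma adjusted p = 0.211), and the low-level *Bcl2l14* one of -0.52 ± 0.21 (SE, limma adjusted p = 0.284). *Bcl2l14* missed an unadjusted 0.05 without vehicle-treated mouse 3 (-0.41), as it did without JAK inhibitor-treated mouse 1 (-0.45). *Bnip3* missed it without JAK inhibitor-treated mouse 2 (-0.36) or 3 (-0.32). Without vehicle-treated mouse 3, *Bnip3* moved to -0.26 (unadjusted p = 0.0464 in limma). *Hrk*, a BH3-only gene, and *Bcl2l10*, a pro-survival relative, were listed at 0 in all mice, and *Bcl2a1c* stayed under 0.22 FPKM.

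Among 8 mitochondrial and apoptosome factors, 1 was lower at an unadjusted p under 0.05 (12.5%, near the 9.40% of all genes). *Endog*, a mitochondrial nuclease, was at 13.8, 12.9 and 17.1 FPKM with vehicle and 8.38, 9.69 and 8.09 with JAK inhibitor. All treated mice lay below all vehicle-treated mice (log2 fold change -0.68 ± 0.15 SE, limma adjusted p = 0.109). *Vdac2*, a channel of the outer membrane that holds BAK, had a log2 fold change of -0.23 ± 0.10 (SE) and *Htra2*, a protease released on pore formation, one of 0.24 ± 0.12 (SE). Neither passed an unadjusted 0.05 in limma, and without vehicle-treated mouse 3 they were -0.12 and 0.12.

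Among the caspases, *Casp2* was at 23.4, 23.7 and 17.7 with vehicle and 26.5, 27.3 and 29.3 with JAK inhibitor (log2 fold change 0.35 ± 0.13 SE, limma adjusted p = 0.246). Its groups did not overlap, but it missed an unadjusted 0.05 without vehicle-treated mouse 3 (0.22) and without JAK inhibitor-treated mouse 2 (0.36) or 3 (0.31). *Casp6* had a log2 fold change of -0.26 ± 0.13 (SE), and its groups did not overlap in the other direction. It was -0.12 without vehicle-treated mouse 3, the highest at 45.2 FPKM.

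Of 7 caspase inhibitors, 1 was lower at an unadjusted p under 0.05 (14.3%, against 9.40% of all genes). *Birc3* (cIAP2, an NF-kB target) was at 54.0, 46.0 and 67.1 FPKM with vehicle and 44.1, 36.7 and 43.3 with JAK inhibitor (log2 fold change -0.41 ± 0.15 SE, limma adjusted p = 0.22). *Cflar*, the inhibitor of caspase-8, had a log2 fold change of -0.25 ± 0.14 (SE) and *Xiap* one of 0.25 ± 0.17 (SE), both with overlapping groups. Without vehicle-treated mouse 3, *Birc3* was at -0.27 and missed an unadjusted 0.05, as it did without JAK inhibitor-treated mouse 2 (-0.33), and *Cflar* was at -0.14. Of 9 tested death receptors and upstream regulators, 1 was lower at an unadjusted p under 0.05 (11.1%, against 9.40% of all genes). The death receptor gene *Fas* was at 33.8, 35.0 and 36.4 FPKM with vehicle and 27.5, 25.4 and 26.6 with JAK inhibitor, so that the groups lay well apart (log2 fold change -0.39 ± 0.10 SE, limma adjusted p = 0.122). *Ddit3* (CHOP) had a log2 fold change of 0.18 ± 0.16 (SE) with overlapping groups, and one of 0.11 without vehicle-treated mouse 3. *Bad*, *Endog* and *Fas* passed an unadjusted 0.05 whichever mouse was left out.

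**Figure D5:**
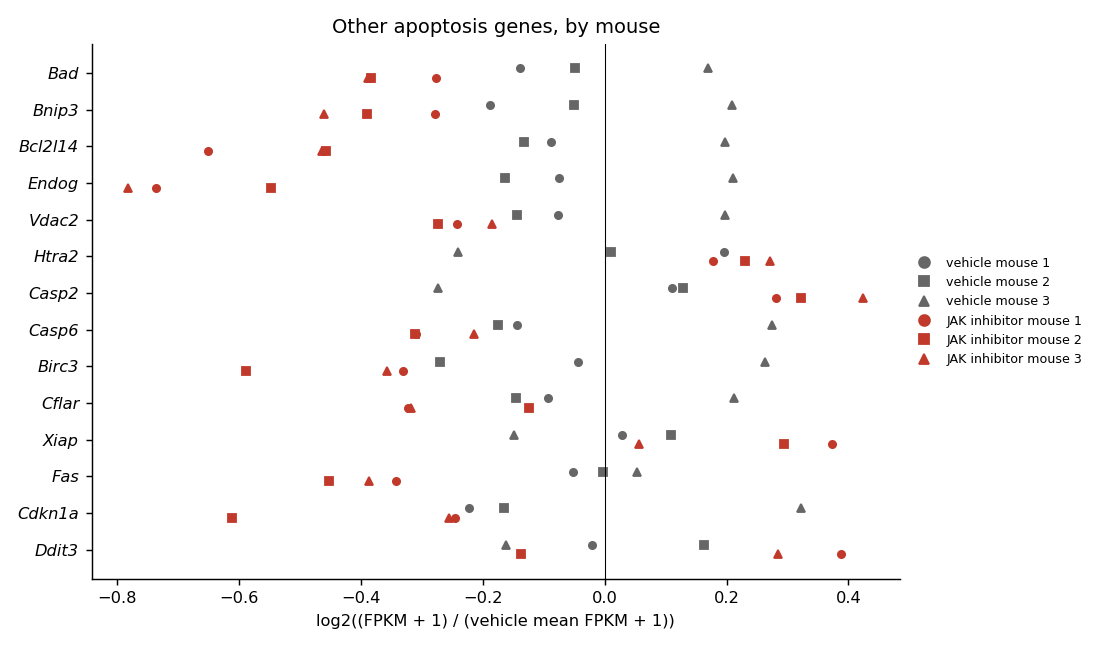
Genes with the smallest unadjusted p in each of the 5 other apoptosis lists, as log2 of (FPKM + 1) over the vehicle mean (FPKM + 1), with 1 symbol per mouse (grey, vehicle; red, JAK inhibitor). The red symbols lie to the left of all grey ones for *Bad*, *Bnip3*, *Bcl2l14*, *Endog*, *Vdac2*, *Casp6*, *Birc3*, *Fas* and *Cdkn1a*. They lie to the right for *Casp2*.

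Other cell type markers differed between the same groups. The sum of 8 macrophage markers, led by *C1qb* and *Adgre1*, was 425.8, 431.7 and 255.5 FPKM with vehicle and 233.5, 139.9 and 159.7 with JAK inhibitor, with all 8 detected in every mouse. Of the 8, 7 had a log2 fold change below 0 and 1 above it. The groups did not overlap for 2 of them, both lower (25%, against 12.1% of all genes). *Adgre1* overlapped, at 91.9, 74.9 and 63.2 FPKM with vehicle and 65.1, 69.0 and 77.9 with JAK inhibitor. The sum of 6 osteoclast markers, led by *Acp5* and *Ctsk*, was 284.8, 175.0 and 643.2 with vehicle and 119.4, 116.6 and 124.1 with JAK inhibitor. Vehicle-treated mouse 3, which had the highest osteoclast sum, also had the highest *Bcl2l11*, *Mcl1*, *Bad*, *Birc3*, *Endog* and *Fas* of the 6 mice. Its *Bcl2*, *Bbc3* and A1 sum were the lowest. Its *Bax* (181.6 FPKM), *Bcl2l1* (11.6 FPKM) and *Bak1* (1.91 FPKM) were neither the highest nor the lowest. The T and NK cell sum was 201.2 to 371.7 FPKM with vehicle and 489.7 to 570.3 with JAK inhibitor, nearly all of it *Nkg7*. *Gzma*, the next gene, was not higher, at 10.9, 8.01 and 33.1 FPKM with vehicle and 10.8, 3.01 and 0 with JAK inhibitor. Of the 4 tested genes of this list, 2 had a log2 fold change above 0 and 2 below. The dendritic cell sum was 33.4 to 46.3 with vehicle and 29.5 to 43.4 with JAK inhibitor, led by *Flt3* and *Siglech*, and the B cell sum 27.5 to 31.9 and 28.8 to 35.7, nearly all of it *Cd79b*, with *Cd79a* under 1 FPKM. Erythroid markers, led by *Hba-a1* and *Hbb-bs*, summed to at most 0.246 with vehicle and to 2.74, 2.17 and 44.2 with JAK inhibitor. The part of these cells in the values of the apoptosis genes was not tested.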

How the data were processed

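The authors deposited 1 table of FPKM per mouse for 24346 gene symbols. The methods give single-end reads of 75 bases and iDEP for the analysis, and the submitters' processing notes name TopHat2 2.0.13, Bowtie2 2.2.3, SAMtools 0.1.19, Cufflinks 2.2.1 and mm10, without their roles. The labels name a SMART-Seq HT and Nextera library, the methods a TruSeq Stranded kit. Read counts are not known, so no counting intervals are given. As a rough estimate from the most frequent ratio of low values, 13 of 15 pairs of libraries gave a clear peak and relative depths within 1.17-fold.

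From the deposited FPKM, log2(FPKM + 1) of the 11301 genes with at least 1 FPKM in at least 1 mouse was fitted with limma 3.58.1 in R 4.3.3 (eBayes, trend on, no block, adjusted by Benjamini-Hochberg over all tested genes) and tested on simulated data. Exact permutation tests of single genes were 2-sided. Same-numbered mice are different animals. Replicates are separate mice by the methods. The members, the lists of 49 apoptosis genes and the marker lists were chosen with earlier results of these data known. Named are all members, the 3 genes of each apoptosis list with the smallest unadjusted p and the 2 highest genes of each marker list, apart from 1 gene that is not reported here; *Cx3cr1*, *Trp53*, *Hrk*, *Bcl2l10*, *Bcl2a1c*, *Ms4a1*, *Pax5*, *Nr4a1*, *Spn* and *Ace* were added after their values were seen. Positions are from GENCODE M21 on GRCm38, the build of mm10, and promoters from RefSeq on GRCm38.p6. The alternatives were a pseudocount of 0.1, other filters and scalings, no trend, weights for each library, a replicate block and each mouse left out. The fit with the A1 copies summed was added after the values were seen. Sequences were compared with Biopython 1.88 under Python 3.11.15, with SciPy 1.17.1 for permutations.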

Additional observations from a re-analysis of the deposited data

How the results depend on the processing

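The number of genes with an adjusted p under 0.05 was 15, and it was 2 without a filter, 34 with at least 1 FPKM in 3 mice, 2 without a trend, 63 with weights for each library and 1 to 25 with 1 mouse left out. None of the 10 members passed it under any of these alternatives; the smallest adjusted p was 0.0922 in limma, for *Bcl2a1d* without vehicle-treated mouse 1. With the replicate block the number was 67, and *Bcl2a1a* (adjusted p = 0.204 in limma) and *Bcl2a1b* (adjusted p = 0.174 in limma) passed an unadjusted 0.05. Over all 14 alternatives, an unadjusted 0.05 that was missed with all mice was passed in 3 each by *Bcl2a1a* and *Bcl2a1b* and in 2 each by *Bcl2*, *Bax* and *Bbc3*. The deviations of same-numbered mice correlated at 0.016, 0.054 and -0.0002, and those of differently numbered mice between -0.038 and 0.019. With 3 mice a group, these values cannot settle whether the numbers pair the mice. The count at an unadjusted p under 0.05 ran from 1351 to 1854 with 1 mouse left out, and that of the other apoptosis genes from 5 to 12.

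*Bcl2a1d* kept its direction and an unadjusted p under 0.05 in all 14 alternatives, from 0.77 to 1.46 on the log2 scale with 1 mouse left out. *Bcl2l11* changed direction with 1 mouse left out (-0.10 to 0.22), as did *Mcl1* (-0.17 to 0.00682, the latter without vehicle-treated mouse 3). The A1 sum missed an unadjusted 0.05 without a filter (adjusted p = 0.424 in limma). The pro-survival minus pro-death difference ran from 0.12 to 0.49 with 1 mouse left out. With 3 mice a group, the 95% intervals of 9 of the 10 members include 0.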
